A study of Mus musculus with 22 samples.

Results

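Gene expression at lights off was compared with gene expression at lights on in liver cells of mice on chow. The comparison used 5 of the 22 RNA-seq libraries of the series: the 3 chow libraries of zeitgeber time (ZT) 0, when the light comes on, and the 2 chow libraries of ZT12, when it goes off. These libraries are those with the 2 labels, and all genes were compared. The mice were 20 weeks old and ate chow throughout, and the labels give no treatment for them. The sources used here do not give strain or sex. Libraries of CDA-HFD mice were set beside them at the same 2 times, with 3 libraries each; this high-fat diet lacks choline, has defined amino acids and models fatty liver disease with fibrosis. That diet began at 8 weeks of age and ran for 12 weeks by one label, while another gives 6 months. Whether the libraries of a group come from separate animals is not stated, so the p-values rest on a spread between libraries that may be technical.

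The 5 libraries held 20775403 to 41665623 reads in genes. A single entry, CT010467.1, took 15.6% to 21.3% of these reads in each library. Of 55367 listed genes, 22409 passed the filter on low counts and were tested. Levels are CPM, read counts scaled to library size with TMM factors, and changes are log2 differences, ZT12 minus ZT0, with their standard error. A gene is called changed at an adjusted p under 0.05 in the quasi-likelihood test of edgeR, with p-values adjusted by Benjamini-Hochberg over all tested genes.

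The labels name the cells HSC, which usually stands for hepatic stellate cells, the retinoid-storing, matrix-making cells of the liver. Markers of sinusoidal endothelial cells were far more abundant than stellate markers. Per kilobase of exon, Clec4g, a lectin of these endothelial cells, stood at 1060.0 to 2214 CPM over the 5 libraries, and Stab2, their hyaluronan receptor, at 378 to 749 CPM. Lrat, the enzyme that esterifies retinol in stellate cells, stood at 0 to 0.367 CPM per kilobase and Des, their intermediate filament protein, at 0.778 to 1.79 CPM per kilobase. All 22 stellate markers listed summed to 357 to 889 CPM over the 5 libraries, and the 28 endothelial markers to 36720 to 65064 CPM. The label was therefore not borne out by these markers, and the samples are called liver cells below. In such bulk samples fewer cells of a type and less RNA per cell cannot be told apart.

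Replicate 2 of ZT0 stood apart from the other 4 libraries. On the first principal component of the 5, which held 33.3% of the variance, it lay at -121.7 and the others between 10.1 and 55.3. Its 28 endothelial markers summed to 36720.4 CPM, against 57306 to 65064 CPM in the other libraries. Its 28 markers of T, NK and B cells summed to 3907 CPM, against 1261 to 2039 CPM.

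The circadian clock of mammalian cells is a loop of transcription. BMAL1 (encoded by Arntl) pairs with CLOCK or NPAS2, binds E-boxes and drives the Per and Cry genes, whose proteins then repress it. The same pair drives the REV-ERB receptors Nr1d1 and Nr1d2, which repress Arntl, and the PAR bZIP factors Dbp, Tef and Hlf, which act on D-boxes. In liver, clock output, feeding and glucocorticoids together set daily rhythms of lipid, sugar and drug metabolism.

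Promoters of 8 core clock genes called in this comparison are shown, and the 8 were picked without a set rule. Other called clock genes, such as Dbp, Nr1d1 and Cry2, are not printed. Each is the 250 bases before a RefSeq start site on GRCm38.p6, read along the gene's strand. Capitals mark an E-box (CACGTG, the same on both strands), a D-box (TTATGTAA, or TTACATAA on the other strand) or the half-site of REV-ERB and ROR receptors (AGGTCA, or TGACCT on the other strand).
Per1, chr11:69098699-69098948, plus strand: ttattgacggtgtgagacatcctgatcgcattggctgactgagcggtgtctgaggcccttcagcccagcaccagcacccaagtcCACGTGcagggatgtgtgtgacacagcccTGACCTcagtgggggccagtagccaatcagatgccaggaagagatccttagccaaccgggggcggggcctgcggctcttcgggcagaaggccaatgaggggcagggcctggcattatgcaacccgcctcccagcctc
Cry1, chr10:85185055-85185304, minus strand: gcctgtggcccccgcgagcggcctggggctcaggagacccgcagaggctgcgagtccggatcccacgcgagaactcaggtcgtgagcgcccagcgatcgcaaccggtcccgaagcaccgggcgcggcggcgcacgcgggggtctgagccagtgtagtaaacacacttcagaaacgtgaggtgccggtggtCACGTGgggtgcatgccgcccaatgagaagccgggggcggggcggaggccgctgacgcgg
Ciart, chr3:95882229-95882478, minus strand: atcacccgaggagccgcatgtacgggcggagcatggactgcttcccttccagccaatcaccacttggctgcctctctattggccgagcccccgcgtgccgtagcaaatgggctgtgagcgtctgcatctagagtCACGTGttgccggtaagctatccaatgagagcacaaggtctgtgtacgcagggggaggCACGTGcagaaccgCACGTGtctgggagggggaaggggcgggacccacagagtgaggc
Per3, chr4:151044666-151044915, minus strand: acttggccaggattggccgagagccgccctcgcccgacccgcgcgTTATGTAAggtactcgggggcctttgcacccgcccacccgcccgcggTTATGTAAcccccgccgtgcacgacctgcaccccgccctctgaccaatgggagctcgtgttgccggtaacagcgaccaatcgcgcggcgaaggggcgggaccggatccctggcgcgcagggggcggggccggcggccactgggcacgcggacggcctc
Nr1d2, chr14:18239107-18239356, minus strand: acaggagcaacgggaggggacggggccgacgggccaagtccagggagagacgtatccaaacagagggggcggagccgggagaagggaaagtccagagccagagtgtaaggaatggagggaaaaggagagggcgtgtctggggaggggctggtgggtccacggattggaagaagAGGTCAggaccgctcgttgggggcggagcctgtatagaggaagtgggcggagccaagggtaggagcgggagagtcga
Tef, chr15:81802423-81802672, plus strand: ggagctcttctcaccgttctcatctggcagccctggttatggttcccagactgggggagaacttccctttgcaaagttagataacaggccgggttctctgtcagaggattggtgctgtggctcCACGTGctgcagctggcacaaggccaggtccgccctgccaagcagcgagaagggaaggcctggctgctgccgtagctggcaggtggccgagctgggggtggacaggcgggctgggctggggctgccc
Bhlhe41, chr6:145865421-145865670, minus strand: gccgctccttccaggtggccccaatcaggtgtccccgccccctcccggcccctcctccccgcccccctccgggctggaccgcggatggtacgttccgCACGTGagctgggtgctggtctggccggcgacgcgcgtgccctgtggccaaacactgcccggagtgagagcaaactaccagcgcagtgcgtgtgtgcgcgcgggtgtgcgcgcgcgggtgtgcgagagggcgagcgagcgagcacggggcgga
Arntl, chr7:113207215-113207464, plus strand: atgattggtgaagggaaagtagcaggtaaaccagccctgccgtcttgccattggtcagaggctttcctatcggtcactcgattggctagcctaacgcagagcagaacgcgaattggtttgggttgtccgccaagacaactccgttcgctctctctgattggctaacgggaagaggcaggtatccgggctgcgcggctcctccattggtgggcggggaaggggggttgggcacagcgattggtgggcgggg

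The Ciart window held 3 E-boxes, whose first bases lay at -116, -58 and -44 from the start site. Per1, Cry1, Tef and Bhlhe41 each had 1 E-box, at -166, -60, -127 and -153. Per3 had 2 D-boxes, at -205 and -158, Nr1d2 had 1 receptor half-site at -77, Per1 had another at -137, and the Arntl window had none of these letters. No motif was found in this window of Dbp, Hlf, Nr1d1, Cry2 or Npas2, which are not printed. Per1, Tef and Arntl each had 2 start sites. The window printed was the one with the most kinds of motif, or the first where they were level. The other Per1 window held no motif, so the printed windows were in part chosen by their letters. Of all 32851 promoter windows of this length, 6.02% held an E-box, 0.819% a D-box and 14% a half-site. A match describes the letters of the window and was not tested for binding.

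At ZT12, 90 of 22409 genes (0.402%) differed from ZT0 in the edgeR test, 45 higher (0.201%) and 45 lower (0.201%). A change of over 2-fold was estimated for 32 of the higher and 40 of the lower genes. The 3 ZT0 and 2 ZT12 libraries did not overlap for 89 of the 90; over all tested genes, groups did not overlap for 10.8% with ZT12 higher and 12.3% with ZT12 lower. The median log2 change of all tested genes was -0.05, and 2208 genes had an unadjusted p under 0.05. How many genes were called depended on single libraries: 176 without replicate 2 of ZT0 and 35 without replicate 2 of ZT12. A set of 20 genes was called with each of the 5 libraries left out in turn, 16 higher and 4 lower. The higher ones were Dbp, Per2, Tef, Nr1d2, Per3, Cry2, Nr1d1, Ciart, Wee1, Fabp1, Uox, Tspan4, Cystm1, Per1, Timp3 and Coq10b, and the lower ones included Arntl, Exoc3l4 and Srebf2.

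**Figure D1:**
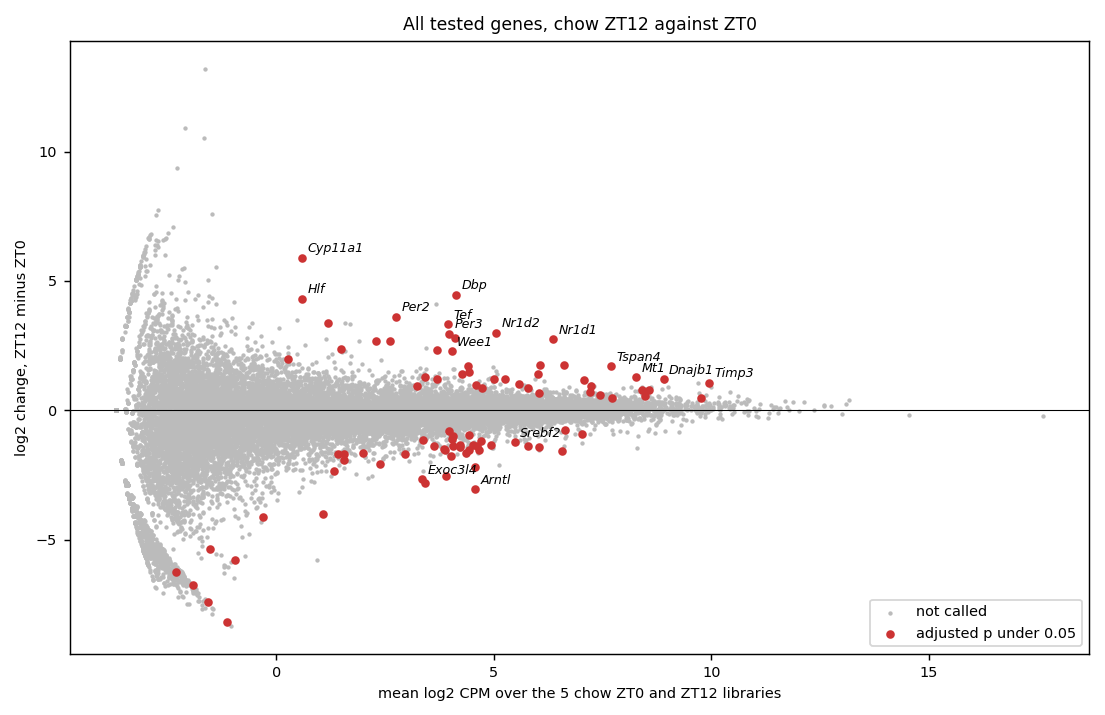
Log2 change, ZT12 minus ZT0, against the mean log2 CPM of the 5 chow libraries, with 1 point per tested gene and the 90 called genes in red. Among called genes with a mean log2 CPM of at least 2, Dbp, Tef and Nr1d2 lie near the top and Arntl and Exoc3l4 near the bottom. Cyp11a1, with a lower mean, lies above them at 5.90, and the called genes with the largest negative values have a mean log2 CPM under 0.

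Promoter windows could be searched for 36 of the 45 genes called higher. An E-box stood in 10 of these (27.8%), a D-box in 2 (5.56%) and a half-site in 8 (22.2%). Among genes called lower, 32 of 45 had an entry, with an E-box in 3 (9.38%), a D-box in 0 and a half-site in 5 (15.6%). Over all tested genes with an entry, an E-box stood in 1258 of 14420 (8.72%).

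The other 2 chow times show where the called genes stood over the day, without a further test. Of the 45 higher genes, 36 had their highest chow mean at ZT12, 7 at ZT18 and 2 at ZT6. Their lowest mean fell at ZT0 for 31, at ZT6 for 10 and at ZT18 for 4. Of the 45 lower genes, 42 had their highest mean at ZT0 and 3 at ZT18, and their lowest mean fell at ZT12 for 32, at ZT18 for 8 and at ZT6 for 5.

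Of the 4 activators of the clock, Arntl fell and the other members did not pass the test. Arntl (chr7:113207465-113314126), which encodes BMAL1, stood at 62.9, 41.7 and 63.7 CPM in the ZT0 libraries and at 5.54 and 7.91 CPM in the ZT12 libraries. All 3 ZT0 values were above both ZT12 values, with a log2 change of -3.05 ± 0.33 and an edgeR adjusted p = 4.11e-05. Clock, its partner, had 32.6, 20.4 and 29.4 CPM at ZT0 and 24.5 and 17.5 CPM at ZT12, and the groups overlapped (-0.39 ± 0.22, adjusted p = 0.6). Npas2, the alternative partner, also overlapped, with 1.41, 2.44 and 4.16 CPM against 0.136 and 1.48 CPM (adjusted p = 0.562). Arntl2, a paralogue of Arntl, stayed at or under 0.67 CPM in all 5 libraries.

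All 6 tested genes of the Per and Cry group were higher at ZT12, with a median log2 change of 2.73. Per2 (chr1:91415982-91459324) had 3.52, 2.97 and 1.21 CPM at lights on and 29.9 and 33.7 CPM at lights off, a log2 change of 3.62 ± 0.50 (edgeR adjusted p = 0.000934). For Per3 (chr4:151003652-151044665), 8.75, 5.94 and 6.19 CPM at ZT0 stood against 57.5 and 51 CPM at ZT12 (2.96 ± 0.24, adjusted p = 8.76e-07). Both separate the times fully, with every lights-off library several fold above every lights-on library. Per1 (chr11:69095217-69109960), which also responds to glucocorticoids and cAMP, moved less, from 28, 32 and 23 CPM to 56 and 72.1 CPM (1.21 ± 0.17, adjusted p = 0.00121). Its mean stayed high at ZT18 (72.4 CPM). Among the cryptochromes, Cry2 (chr2:92403646-92434043) rose from 8.75, 7.85 and 7.11 CPM to 53.1 and 55.6 CPM (2.78 ± 0.27, adjusted p = 9.73e-06). Cry1 (chr10:85131700-85185064), whose peak in liver follows those of the Per genes, had 21.8, 22.4 and 24.3 CPM at ZT0 and 55.6 and 49.7 CPM at ZT12 (1.20 ± 0.23, adjusted p = 0.0234), and its chow mean was higher still at ZT18 (77.2 CPM). The Cry1 call was lost without replicate 1 of ZT0 (adjusted p = 0.071), replicate 1 of ZT12 (0.116) and replicate 2 of ZT12 (0.104), and over its 13 alternatives the adjusted p ran from 7.19e-07 to 0.116. Ciart (chr3:95878503-95882251), or Chrono, a further repressor of CLOCK and BMAL1, went from 0.994, 3.54 and 2.90 CPM to 16.7 and 15 CPM (2.68 ± 0.38, adjusted p = 0.00119).

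Both REV-ERB genes were higher at ZT12, and no ROR gene was called. Nr1d1 (chr11:98767932-98775333), which encodes REV-ERB alpha, had 50.5, 26.5 and 41 CPM at ZT0 and 271 and 253 CPM at ZT12 (2.74 ± 0.24, edgeR adjusted p = 2.32e-06). Its mean at ZT6 was higher than at ZT12, at 403 CPM, and at ZT18 it stood at 29.7 CPM. Nr1d2 (chr14:18204054-18239127), which encodes REV-ERB beta, went from 15.5, 14.2 and 13.5 CPM to 108 and 122 CPM (2.99 ± 0.18, adjusted p = 5.74e-09). Its lights-on values lay close together, and the times did not overlap. Rora, an activator at the same sites, was at 39.2, 88 and 34.4 CPM at ZT0 and 46.8 and 66 CPM at ZT12, with its highest value in replicate 2 of ZT0 (adjusted p = 0.982). Rorb stayed under 1 CPM in all 5 libraries.

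In the group of PAR bZIP, NFIL3 and DEC factors, 4 of 6 tested genes rose, with a median log2 change of 3.36. Dbp (chr7:45705088-45710203) had the largest estimate of the called genes with a mean log2 CPM of at least 2, from 6.23, 3.59 and 5.66 CPM in the ZT0 libraries to 129 and 99.4 CPM in the ZT12 libraries (4.46 ± 0.26, edgeR adjusted p = 4.36e-09). Tef (chr15:81802421-81826863) went from 6.76, 7.09 and 4.59 CPM to 64.3 and 60.1 CPM (3.34 ± 0.31, adjusted p = 5.72e-06). Hlf (chr11:90336536-90390895), another PAR bZIP factor, had 0.115, 0.383 and 0.919 CPM at ZT0 and 9.45 and 9.16 CPM at ZT12 (4.31 ± 0.78, adjusted p = 0.0131), and its call was lost without replicate 2 of ZT12 (adjusted p = 0.0573). All activators of D-boxes in the list thus stood higher at lights off, in both libraries. Nfil3, the repressor of the same sites, had 10.6, 17.9 and 4.79 CPM at ZT0 and 3.45 and 5.09 CPM at ZT12, so the groups overlapped (-1.36 ± 0.36, adjusted p = 0.113). It was called lower without replicate 3 of ZT0 (adjusted p = 0.004). Bhlhe41 (chr6:145858243-145865558), or DEC2, which competes for E-boxes, rose from 0.688, 1.39 and 0.580 CPM to 11.5 and 7.12 CPM (3.39 ± 0.64, adjusted p = 0.0195), a call lost without replicate 1 of ZT0 (adjusted p = 0.0772), replicate 3 of ZT0 (0.0627) and replicate 1 of ZT12 (0.0865). Its relative Bhlhe40 (DEC1) had 68.3, 113 and 43.3 CPM against 105 and 106 CPM and overlapped, with its highest value in replicate 2 of ZT0. Without that library Bhlhe40 was called higher, with an adjusted p = 0.012. Over the 13 alternatives adjusted p ran from 1.53e-06 to 0.191 for Hlf, from 6.19e-06 to 0.137 for Bhlhe41, from 1.11e-07 to 0.657 for Nfil3 and from 0.012 to 0.854 for Bhlhe40.

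**Figure D2:**
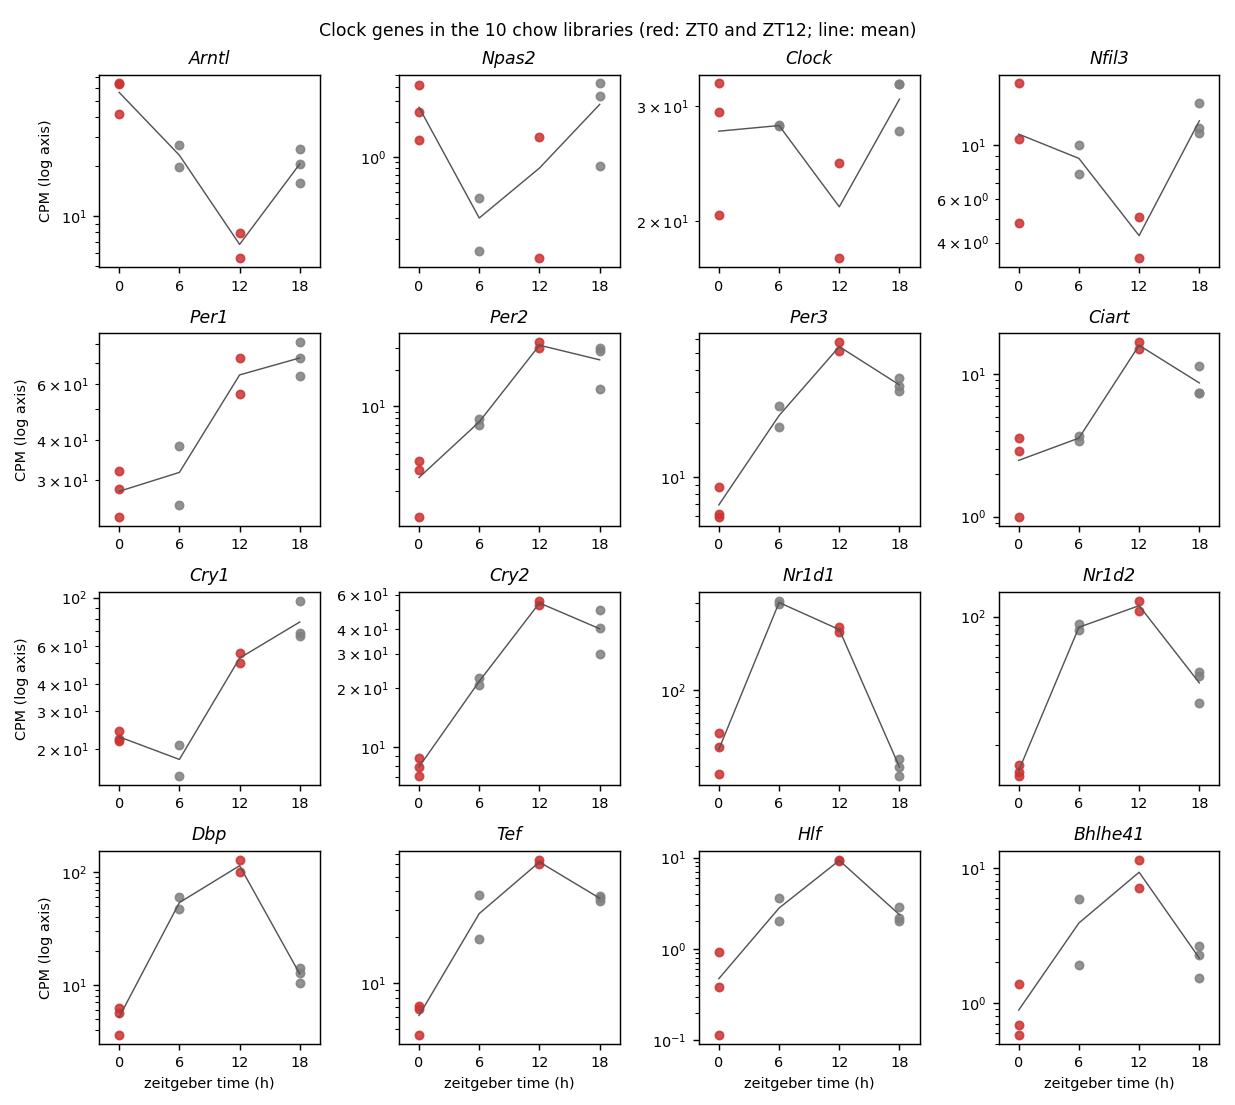
CPM (log axis) of 16 clock genes against zeitgeber time in the 10 chow libraries, 1 point per library, with ZT0 and ZT12 in red, ZT6 and ZT18 in grey and a line through the means. Arntl is lowest and the Per, Cry2, Dbp, Tef and Hlf values are high at ZT12, whereas Nr1d1 is highest at ZT6 and Cry1 at ZT18.

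Over these 4 groups, 13 of 21 tested clock genes were called, 12 higher and 1 lower, against 0.402% of all genes. With each of the 5 libraries left out in turn, 11 to 14 were called. None of the 21 tested kinases and ubiquitin ligases that modify PER and CRY proteins was called, and their median log2 change was 0.05.

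Among 32 tested genes known as clock outputs in many tissues, 6 were higher and 1 lower at ZT12, with a median of 0.19. Over all genes 0.201% were called each way. Dbp, Per1 and Tsc22d3 are among the 6, and Per1 and Tsc22d3 count again among the glucocorticoid-induced genes below. The number called lower was 2 without replicate 2 of ZT0 and 0 without replicate 2 of ZT12. Wee1 (chr7:110122046-110143286), a kinase that holds cells before mitosis and a target of CLOCK and BMAL1, had 9.40, 8.33 and 8.37 CPM at ZT0 and 49.9 and 34.8 CPM at ZT12 (2.28 ± 0.25, edgeR adjusted p = 4.11e-05). Tspan4 (chr7:141475240-141493427), a tetraspanin of migrasomes, rose from 128, 103 and 156 CPM to 444 and 399 CPM (1.71 ± 0.23, adjusted p = 0.000771). Coq10b (chr1:55052770-55072702), a coenzyme Q binding protein of mitochondria, rose from 16.6, 19.9 and 18.5 CPM to 35.6 and 36.6 CPM (0.98 ± 0.14, adjusted p = 0.00112). These 3 genes did not overlap between times and were called without each library in turn. Wee1 was the 1 called gene of 28 tested replication and mitosis genes, whose median was -0.27; without replicate 2 of ZT12, 3 others of them were called lower, and 1 without replicate 3 of ZT0. Leo1 (chr9:75441524-75466432), a subunit of the PAF1 elongation complex, fell from 38.2, 34.8 and 36.1 CPM to 19.5 and 12.5 CPM (-1.19 ± 0.21, adjusted p = 0.0104), a call lost without replicate 2 of ZT12 (adjusted p = 0.325) and with adjusted p from 1.26e-05 to 0.325 over its alternatives. Usp2, a deubiquitinase under clock control, had 2.71, 2.87 and 1.98 against 4.95 and 4.07 CPM (adjusted p = 0.464). Nampt, the rate-limiting enzyme of NAD salvage, had 49.1, 47 and 58.4 against 51.9 and 49.8 CPM, and Cirbp, a cold-induced RNA-binding protein, 68.5, 81.6 and 64.5 against 74.9 and 70.5 CPM. Both overlapped, with adjusted p = 0.998 and 0.995.

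Genes of cholesterol synthesis and uptake were in part lower at lights off: 4 of 29 tested members were lower and none was higher. Over all genes 0.201% were called lower. Of the 29, 25 had a negative estimate, with a median log2 change of -0.62 against -0.05 for all genes. Their sums overlapped, at 970, 793 and 1008 CPM at ZT0 and 838 and 777 CPM at ZT12. On the 5 compared libraries alone 1 member was called lower, and with DESeq2 8 were called lower and 2 higher. Srebf2 (chr15:82147181-82205379), which encodes SREBP2, the factor that drives this pathway when sterols are low, fell from 55.8, 70.6 and 63.1 CPM to 23.3 and 30.2 CPM (-1.24 ± 0.14, edgeR adjusted p = 0.000102). It was called without each library in turn, and its mean was 33.4 CPM at ZT6 and 60.9 CPM at ZT18. Sqle (chr15:59315077-59331192), squalene epoxidase, fell from 36.1, 18.3 and 26.3 CPM to 10.1 and 5.93 CPM (-1.76 ± 0.33, adjusted p = 0.0193), and its call was lost without replicate 1 of ZT0 (adjusted p = 0.0605) and replicate 2 of ZT12 (0.376). Fdft1 (chr14:63145150-63179578), squalene synthase, fell from 27.9, 26.7 and 29.8 CPM to 15.8 and 13.3 CPM (-0.95 ± 0.17, adjusted p = 0.0102), a call lost without replicate 2 of ZT12 (adjusted p = 0.292). Over their alternatives adjusted p ran from 2.95e-09 to 0.376 for Sqle and from 1.36e-05 to 0.305 for Fdft1. Hmgcs1, which makes HMG-CoA, missed the threshold at 57.4, 32.1 and 44.4 against 25.5 and 19.6 CPM (-0.99 ± 0.22, adjusted p = 0.055), and was called lower without replicate 2 of ZT0 (adjusted p = 0.00852). Insig1, which holds SREBPs in the endoplasmic reticulum, overlapped, at 54.8, 29.7 and 44.9 against 30.6 and 25.2 CPM. Without each library in turn, 2 to 5 members were called lower, with 2 without replicate 2 of ZT12, and 1 was called higher without replicate 3 of ZT0. None of 21 tested genes of fatty acid synthesis and none of 24 of fatty acid oxidation was called, with medians of 0.01 and 0.08. Fads2, a fatty acid desaturase, had 53.3, 39 and 49.9 against 29.1 and 28.8 CPM (adjusted p = 0.176).

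Glucocorticoid-induced genes were higher at lights off in part: 5 of 25 tested members rose, none fell, and the median log2 change was 0.49. Of all tested genes, 0.201% were called higher. With a replicate block, and on the 5 compared libraries alone, 1 member was called higher. Mt1 and Mt2 encode metallothioneins, which bind zinc and copper. Mt1 (chr8:94179082-94180327) went from 246, 164 and 249 CPM to 551 and 510.5 CPM (1.27 ± 0.22, edgeR adjusted p = 0.01). Mt2 (chr8:94172664-94173568) went from 14.6, 9.86 and 14.9 CPM to 34.8 and 35.3 CPM (1.41 ± 0.27, adjusted p = 0.0193). Both had their highest chow mean at ZT12, and neither overlapped between times. Mt1 lost its call without replicate 1 of ZT12 (adjusted p = 0.0502) and replicate 2 of ZT12 (0.0516) and Mt2 without replicate 1 of ZT12 (adjusted p = 0.0792) and replicate 2 of ZT12 (0.18). Tsc22d3 (chrX:140539528-140600659), or GILZ, an anti-inflammatory leucine zipper protein, rose from 116, 108 and 126 CPM to 194 and 253 CPM (0.94 ± 0.19, adjusted p = 0.0272), a call lost without replicate 1 of ZT0 (adjusted p = 0.071) and replicate 2 of ZT12 (0.376). The 5 also include Per1 and Pck1, and Per1 and Tsc22d3 are counted among the clock outputs too. Fkbp5, a co-chaperone of the receptor, had 59.7, 81.7 and 100 CPM at ZT0 and 120.4 and 137 CPM at ZT12 without overlap, but was not called (adjusted p = 0.393), and Sgk1, a kinase that regulates ion transport, overlapped (1278, 588 and 1183 against 1329 and 1143 CPM). Over the 13 alternatives adjusted p ran from 3.14e-13 to 0.376 for Mt1, Mt2 and Tsc22d3. Without each library in turn, 1 to 7 members were called higher, 1 without replicate 2 of ZT12 and 2 without replicate 1 of ZT12, and 1 was called lower without replicate 2 of ZT0.

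None of 29 immediate early genes and none of 14 Kruppel-like factors was called, with medians of 0.23 and 0.44. Without replicate 2 of ZT0, the library that stood apart, 9 immediate early genes were called higher. Of the Kruppel-like factors, 1 was called higher without that library and 1 without replicate 1 of ZT0. Fos, a subunit of AP-1, which follows growth and stress signals, had 592, 972 and 377 CPM at ZT0 and 1352 and 1321 CPM at ZT12, with replicate 2 well above the other ZT0 libraries (1.05 ± 0.25, edgeR adjusted p = 0.0788, and 0.00127 without that library). Klf9, a glucocorticoid-induced factor, had 57.2, 33.4 and 50.2 against 71.2 and 91.8 CPM (adjusted p = 0.074), and was called without replicate 1 of ZT0 (adjusted p = 0.041). Klf2, a flow-responsive factor of endothelium, had 61.9, 58.9 and 54.4 against 95.8 and 112 CPM (adjusted p = 0.103). Adjusted p over the alternatives ran from 1.28e-16 to 0.596 for Fos and from 0.00815 to 0.635 for Klf9.

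Chaperones of the cytosol and of the endoplasmic reticulum gave 1 call each, both higher, against 0.201% of all genes called higher. Dnajb1 (chr8:83608193-83612653), an HSP40 co-chaperone induced by heat, rose from 287, 483 and 286 CPM to 658 and 956 CPM (1.20 ± 0.25, edgeR adjusted p = 0.0369). It was the 1 called gene of 30 tested cytosolic chaperones, whose median was 0.23, and lost its call without replicate 1 of ZT0 (adjusted p = 0.118), replicate 3 of ZT0 (0.0853) and replicate 2 of ZT12 (0.416). Hspa1a, inducible HSP70, had 81, 178 and 94.9 CPM against 176 and 183 CPM and overlapped, as did Hsp90aa1 (74.3, 118 and 85.1 against 116 and 162 CPM). Hspa8, constitutive HSC70, had 285, 365 and 263 against 415 and 464 CPM without overlap (adjusted p = 0.208). Chow means of all 4 genes were highest at ZT18, with 1139 CPM for Dnajb1, 378 for Hspa1a, 214 for Hsp90aa1 and 738 for Hspa8. Herpud1 (chr8:94386438-94395377), which serves the degradation of misfolded proteins, rose from 296, 224 and 309 CPM to 492 and 452 CPM (0.77 ± 0.13, adjusted p = 0.0091), a call lost without replicate 1 of ZT12 (adjusted p = 0.0826) and replicate 2 of ZT12 (0.0527). It was the 1 call of 31 tested genes of the unfolded protein response, whose median was -0.12; without replicate 2 of ZT0, 2 of the 31 were also called lower. Hspa5, the chaperone BiP, had 446, 527 and 529 CPM at ZT0 and 379 and 407 CPM at ZT12, the opposite order, and was not called (adjusted p = 0.231). Over the alternatives adjusted p ran from 2.14e-17 to 0.416 for Dnajb1 and from 1.34e-05 to 0.408 for Herpud1.

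Of 25 tested genes of glycolysis and hypoxia, 2 were higher and 1 lower, with a median of 0.01. Over all genes 0.201% were called each way. The number called higher was 3 without replicate 2 of ZT0 and 0 without replicate 1 of ZT0 and with either ZT12 library left out. Pdk1 (chr2:71873224-71903858), which inhibits pyruvate dehydrogenase, rose from 36.8, 50.8 and 42.6 CPM to 81.8 and 76.3 CPM (0.87 ± 0.16, edgeR adjusted p = 0.0193). Aldoa, aldolase A, rose from 301, 300.3 and 319 CPM to 491 and 414 CPM (0.56 ± 0.12, adjusted p = 0.0378). Pfkp (chr13:6579768-6648777), the platelet-type phosphofructokinase, fell from 103, 163 and 107 CPM to 73.1 and 72 CPM (-0.78 ± 0.16, adjusted p = 0.0372). Each separated the times, and each call was lost with 1 library left out: Pdk1 without replicate 1 of ZT0 (adjusted p = 0.071), replicate 1 of ZT12 (0.0949) and replicate 2 of ZT12 (0.0892), Aldoa without replicate 1 of ZT0 (adjusted p = 0.0912), replicate 1 of ZT12 (0.369) and replicate 2 of ZT12 (0.0597), and Pfkp without replicate 1 of ZT12 (adjusted p = 0.143) and replicate 2 of ZT12 (0.324). Adjusted p for the 3 ran from 0.00048 to 0.542 over their alternatives.

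Matrix genes showed 1 stable increase, and 0.201% of all genes were called each way. Timp3 (chr10:86300372-86349506), a metalloproteinase inhibitor bound to matrix, stood at 888, 583 and 762 CPM in the ZT0 libraries and at 1543 and 1583 CPM in the ZT12 libraries (1.07 ± 0.16, edgeR adjusted p = 0.00217). Adamts4 (chr1:171250421-171260637), which cleaves aggrecan and versican, fell from 25.9, 17.5 and 54.6 CPM to 6.95 and 4.33 CPM (-2.54 ± 0.54, adjusted p = 0.0389), a call lost without replicate 3 of ZT0 (adjusted p = 0.102), replicate 1 of ZT12 (0.101) and replicate 2 of ZT12 (0.451). Those were the calls among 31 tested matrix proteases, inhibitors and cross-linkers, whose median was -0.02. Of 28 tested collagens and matrix proteins, Eln (chr5:134702593-134747323), elastin, fell, from 5.62, 3.11 and 5.37 CPM to 0.999 and 0.840 CPM (-2.35 ± 0.51, adjusted p = 0.0472), and the median was -0.26. Its call was lost without replicate 1 of ZT0 (adjusted p = 0.104), replicate 3 of ZT0 (0.0838), replicate 1 of ZT12 (0.216) and replicate 2 of ZT12 (0.467). Adjusted p over the alternatives ran from 6.89e-08 to 0.451 for Adamts4 and from 7.43e-05 to 0.467 for Eln.

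Of 29 tested hepatocyte markers, 3 were called higher at ZT12, Fabp1 and Pck1 among them. Over all genes 0.201% were called higher. Upp2, Uox and Adh1, also given here, are on no list, and Uox and Adh1 were chosen after their values were seen. Fabp1 (chr6:71199827-71205023), the liver fatty acid binding protein, had 37.6, 34.9 and 51.8 CPM at ZT0 and 141 and 136 CPM at ZT12 (1.75 ± 0.28, edgeR adjusted p = 0.00403). Uox (chr3:146570426-146632305), urate oxidase, rose from 11.8, 12.4 and 15 CPM to 40.7 and 45.5 CPM (1.72 ± 0.25, adjusted p = 0.00137). Both were called without each library in turn. Pck1 (chr2:173153048-173159273), the gluconeogenic enzyme PEPCK and also a glucocorticoid target, rose from 6.80, 8.91 and 4.88 CPM to 32.1 and 37.8 CPM (2.35 ± 0.48, adjusted p = 0.0343), a call lost without replicate 1 of ZT0 (adjusted p = 0.0908), replicate 3 of ZT0 (0.0868), replicate 1 of ZT12 (0.0583) and replicate 2 of ZT12 (0.227). Upp2 (chr2:58567298-58792971), a liver uridine phosphorylase, rose from 2.87, 2.39 and 3.63 CPM to 13.6 and 23.9 CPM (2.66 ± 0.55, adjusted p = 0.0343), a call lost without replicate 1 of ZT0 (adjusted p = 0.0959), replicate 2 of ZT0 (0.0778), replicate 3 of ZT0 (0.0587) and replicate 2 of ZT12 (0.376). Adh1 (chr3:138260991-138290698), alcohol dehydrogenase, rose from 44.8, 37.5 and 48.8 CPM to 111 and 122 CPM (1.41 ± 0.28, adjusted p = 0.03), a call lost without replicate 1 of ZT0 (adjusted p = 0.071), replicate 2 of ZT0 (0.0632), replicate 1 of ZT12 (0.0675) and replicate 2 of ZT12 (0.24). Adjusted p over the alternatives ran from 7.13e-13 to 0.376 for Pck1, Upp2 and Adh1.

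The summed hepatocyte markers were also higher at ZT12. The 29 tested members summed to 629.9, 618 and 655 CPM in the ZT0 libraries and to 1066 and 899.8 CPM in the ZT12 libraries, with no overlap. No member was called lower, 1 was called higher without replicate 2 of ZT12, and 23 had a positive estimate, with a median log2 change of 0.60; none was at 0 in all 5 libraries. The most abundant secreted protein of hepatocytes did not follow: Alb, albumin, had 158, 168 and 118 CPM at ZT0 and 124 and 88.8 CPM at ZT12 (-0.47 ± 0.30, edgeR adjusted p = 0.649). Apoa1, the main protein of HDL, overlapped, at 25.5, 31.8 and 34.5 against 47 and 33.4 CPM. The part of hepatocyte RNA in the higher values of Fabp1, Uox and the rest was not tested.

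Against 0.201% of all genes called lower, markers of leukocytes gave 1 call in 3 lists, Itgax, which was lower at ZT12. The other 10 genes given beside it were called lower but are on no list, and most were chosen after their values were seen, so they describe single genes. Itgax (chr7:128129547-128150657), the dendritic cell integrin CD11c, fell from 12.4, 27.3 and 16.1 CPM to 7.31 and 6.77 CPM (-1.40 ± 0.25, edgeR adjusted p = 0.0131), a call lost without replicate 1 of ZT12 (adjusted p = 0.0556) and replicate 2 of ZT12 (0.227). Ccr9 (chr9:123678439-123784330), a chemokine receptor of gut-homing lymphocytes and plasmacytoid dendritic cells, fell from 79.7, 122 and 106 CPM to 54.9 and 21.1 CPM (-1.44 ± 0.30, adjusted p = 0.0378), a call lost without replicate 2 of ZT0 (adjusted p = 0.0633), replicate 3 of ZT0 (0.0613) and replicate 2 of ZT12 (0.436). In both genes replicate 2 of ZT12 held the lowest value, though for Itgax both ZT12 libraries were nearly level. Cxcr5 (chr9:44511787-44561877), a receptor that guides B cells to follicles, fell from 7.26, 10.5 and 9.57 CPM to 2.14 and 2.19 CPM (-2.07 ± 0.40, adjusted p = 0.0207), a call lost without replicate 1 of ZT12 (adjusted p = 0.101) and replicate 2 of ZT12 (0.26). Fgd2 (chr17:29360914-29379661), a guanine nucleotide exchange factor of antigen-presenting cells, fell from 31.1, 44.6 and 26.7 CPM to 16.2 and 7.48 CPM (-1.54 ± 0.34, adjusted p = 0.0494), a call lost without replicate 1 of ZT0 (adjusted p = 0.0698), replicate 2 of ZT0 (0.0892) and replicate 2 of ZT12 (0.552). Eomes (chr9:118478212-118486132), a factor of NK and memory T cells, fell from 1.87, 3.59 and 1.45 CPM to 0.0454 and 0.178 CPM (-4.11 ± 0.73, adjusted p = 0.0113), a call lost without replicate 1 of ZT12 (adjusted p = 0.0667) and replicate 2 of ZT12 (0.121). Also called lower were Napsa, Bach2, Wdfy4, Csf2rb, H2-DMb1 and Tlr1, with log2 changes from -1.69 (Tlr1) to -1.15 (Bach2) and no overlap between times. All 6 lost their call without replicate 2 of ZT12, with adjusted p from 0.075 (Wdfy4) to 0.549 (H2-DMb1), and all but Napsa lost it without at least 1 other library. Over all alternatives the adjusted p of these 11 genes ran from 3.63e-22 to 0.552.

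Summed leukocyte markers differed between the libraries too. The 23 neutrophil and dendritic cell markers summed to 1290.2, 1714 and 1663 CPM at ZT0 and to 1254 and 692 CPM at ZT12, with no overlap and replicate 2 of ZT12 the lowest. One of them, Itgax, was called lower (3 without replicate 1 of ZT12, 2 without replicate 3 of ZT0 and 0 without replicate 2 of ZT12), 16 had a negative estimate with a median of -0.87, and Elane was at 0 in all 5 libraries. The 26 macrophage and Kupffer cell markers summed to 1734, 1696 and 1642 CPM at ZT0 and 1430.4 and 1088 CPM at ZT12, with no overlap and no call, though 1 was called lower with either ZT12 library left out. The 28 markers of T, NK and B cells summed to 1552, 3907 and 1261 CPM and 1833 and 2039 CPM, and none was called. Without replicate 2 of ZT0, 7 of them were called higher, and without replicate 3 of ZT0, 3 were called lower, as was 1 without replicate 1 of ZT0. Among the 28, 21 had a negative and 7 a positive estimate, with a median log2 change of -0.34. The groups did not overlap for 11 with ZT12 lower and 1 with ZT12 higher, against 12.3% and 10.8% of all tested genes. Cd8b1 of cytotoxic T cells and Ncr1 of NK cells had the smallest p of the list. Cd8b1 had 28.9, 41.4 and 23.4 CPM at ZT0 and 14.9 and 9.72 CPM at ZT12 (edgeR adjusted p = 0.0501). Ncr1 had 13.9, 48 and 9.04 against 6.81 and 2.65 CPM (adjusted p = 0.0668). The part of leukocyte RNA in the lower values was not tested.

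**Figure D3:**
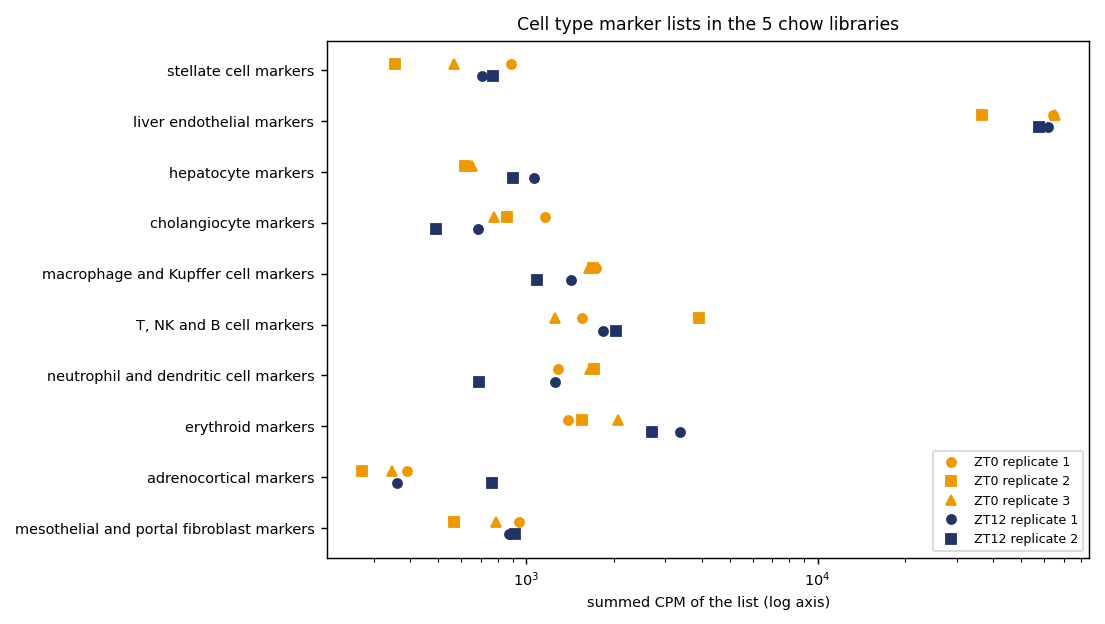
Summed CPM (log axis) of each cell type marker list in the 5 chow libraries, with ZT0 in orange, ZT12 in blue and the marker shape giving the replicate. Hepatocyte and erythroid sums are higher in both ZT12 libraries. Macrophage sums, cholangiocyte sums and the sums of neutrophil and dendritic cell markers are lower in both. The endothelial sum of replicate 2 of ZT0 lies below the other 4.

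Other cell types gave few calls, against 0.201% of all genes called each way. The 20 cholangiocyte markers summed to 1157, 858 and 774 CPM at ZT0 and 682 and 490.5 CPM at ZT12, with no marker at 0 in all 5 libraries. Of these, Cdh1 (chr8:106603351-106670246), E-cadherin, fell from 35.5, 33.2 and 32.6 CPM to 17.2 and 9.77 CPM (-1.34 ± 0.28, edgeR adjusted p = 0.0343), a call lost without replicate 1 of ZT0 (adjusted p = 0.0712) and replicate 2 of ZT12 (0.505) and with adjusted p from 6.56e-09 to 0.505 over its alternatives. The 12 erythroid markers summed to 1393, 1556 and 2059.7 CPM and 3366 and 2708 CPM, without overlap and without a call, though 1 was called higher without replicate 3 of ZT0; Hbb-bs, a beta globin, had 669, 739.7 and 1007 against 1643 and 1347 CPM (adjusted p = 0.0994). Globin genes are near-identical copies, so how reads were split between them is uncertain. No stellate marker (21 tested) and no endothelial marker (28 tested) was called, with a median of 0.03 in each. Kdr, the main VEGF receptor of endothelium, had 2992, 1895 and 3289.9 CPM at ZT0 and 3157 and 2808 CPM at ZT12, with the low value in replicate 2 of ZT0.

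Of 11 adrenocortical markers, Cyp11a1 was called, on a high value in 1 of the 2 ZT12 libraries. The share of all genes called higher was 0.201%. Cyp11a1 (chr9:58006411-58027023), which starts steroid synthesis, had 0.153, 0.766 and 0.725 CPM at ZT0 and 0.727 and 62.4 CPM at ZT12, so replicate 1 of ZT12 lay within the ZT0 range. This was the 1 called gene whose groups overlapped (5.90 ± 1.12, edgeR adjusted p = 0.0193). The call was lost without replicate 1 of ZT0 (adjusted p = 0.0839), replicate 3 of ZT0 (0.051) and replicate 2 of ZT12 (0.951), and adjusted p ran from 3.49e-90 to 0.951 over its alternatives. Cyp11b1, which makes corticosterone, was at 0.0454 and 24.1 CPM in the ZT12 libraries and at most 0.0958 CPM at ZT0. Star, which brings cholesterol into mitochondria, was at 7.15, 2.68 and 4.40 CPM and 26.5 and 138 CPM, so both ZT12 libraries were above the ZT0 range, and it was not called (adjusted p = 0.103). The 11 markers summed to 389.8, 273 and 347 CPM at ZT0 and 361 and 763 CPM at ZT12, and none was at 0 in all 5 libraries. In the 3 chow ZT18 libraries they summed to 586, 1132 and 1149.7 CPM, and the ZT18 mean of Cyp11a1 was 124 CPM. Without replicate 1 of ZT12, 4 of the 11 were called higher. The part of adrenal RNA in replicate 2 of ZT12 was not tested.

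Genes outside the lists made up 52 of the 90 calls, and some of those with the largest changes follow. Exoc3l4 (chr12:111417017-111431678) fell from 21.3, 18 and 24.3 CPM to 3.54 and 3.10 CPM (-2.67 ± 0.36, edgeR adjusted p = 0.000863), and Cystm1 (chr18:36342520-36403097), a cysteine-rich membrane protein, rose from 16.7, 13.3 and 12.8 CPM to 41.4 and 37.4 CPM (1.46 ± 0.24, adjusted p = 0.00403). Both were called without each library in turn. Srgap3 (chr6:112717971-112947266), a Rac GTPase-activating protein, fell from 10.2, 16.8 and 10.7 CPM to 4.22 and 3.61 CPM (-1.68 ± 0.26, adjusted p = 0.00301). Dusp10 (chr1:184013302-184075636), a phosphatase of JNK and p38, fell from 39.9, 31.5 and 26.5 CPM to 11.7 and 9.01 CPM (-1.66 ± 0.26, adjusted p = 0.00328). Both separated the times fully but lost their call without 1 library: Srgap3 without replicate 2 of ZT12 (adjusted p = 0.104), and Dusp10 without replicate 2 of ZT12 (adjusted p = 0.167). Tmem221 (chr8:71554238-71558871) fell from 17.9, 27.9 and 22 CPM to 8.77 and 6.87 CPM (-1.53 ± 0.30, adjusted p = 0.0216), a call lost without replicate 1 of ZT12 (adjusted p = 0.0556) and replicate 2 of ZT12 (0.337). Adjusted p over the alternatives ran from 6.26e-10 to 0.337 for Srgap3, Dusp10 and Tmem221.

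A further 6 called genes on no list were chosen after their values were seen and are given as single genes. Mcoln1 (chr8:3500457-3515232), a lysosomal calcium channel, rose from 162, 126 and 153 CPM to 222 and 221 CPM (0.59 ± 0.12, edgeR adjusted p = 0.0312). Cln3 (chr7:126571207-126585817), a lysosomal membrane protein, rose from 55.8, 54.3 and 53.9 CPM to 91.4 and 81.1 CPM (0.66 ± 0.14, adjusted p = 0.0494). Sqstm1 (chr11:50199366-50210827), the autophagy receptor p62, rose from 829, 648 and 823 CPM to 1115 and 1023 CPM (0.48 ± 0.11, adjusted p = 0.0494). Cln3 lost its call without each library in turn (adjusted p from 0.0636 to 0.306). Mcoln1 lost its call without replicate 3 of ZT0 (adjusted p = 0.0513), replicate 1 of ZT12 (0.175) and replicate 2 of ZT12 (0.276), and Sqstm1 without replicate 1 of ZT12 (adjusted p = 0.376) and replicate 2 of ZT12 (0.227). Me2 (chr18:73769903-73815449), mitochondrial malic enzyme, rose from 128, 113 and 127 CPM to 193 and 203 CPM (0.69 ± 0.10, adjusted p = 0.00195), a call lost without replicate 2 of ZT12 (adjusted p = 0.0549). Papss2 (chr19:32595790-32667187), which makes the sulfate donor PAPS, rose from 9.94, 10.5 and 7.54 CPM to 25.6 and 17.9 CPM (1.22 ± 0.20, adjusted p = 0.00403), a call lost without replicate 1 of ZT12 (adjusted p = 0.0829). Xdh (chr17:73883895-73950196), xanthine dehydrogenase, rose from 356, 244 and 332 CPM to 483 and 574 CPM (0.77 ± 0.16, adjusted p = 0.0327), a call lost without replicate 2 of ZT0 (adjusted p = 0.0504), replicate 1 of ZT12 (0.0528) and replicate 2 of ZT12 (0.399). Over the alternatives the adjusted p of these 6 genes ran from 4.72e-09 to 0.635.

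In 20 of the 38 lists no member was called. Besides those above, they include proteasome subunits (31 tested, median 0.11), cytosolic ribosomal proteins (28 tested, median 0.04), antioxidant genes of NRF2 (25 tested, median 0.23), interferon-stimulated genes (26 tested, median -0.11) and the TGF-beta and BMP pathway (30 tested, median 0.02). Genes of leukocyte adhesion and chemokines (28 tested), vasoactive mediators (24 tested) and VEGF, Notch and angiocrine genes (27 tested) had medians of -0.02, 0.32 and -0.05. Within these lists, Ccl3, a chemokine of macrophages, had 38.8, 49.5 and 16.6 CPM at ZT0 and 15.8 and 13.7 CPM at ZT12 (edgeR adjusted p = 0.102), and was called lower without replicate 3 of ZT0 (adjusted p = 0.00354), with adjusted p from 8.63e-12 to 0.59 over its alternatives. Cxcl12, which retains leukocytes through CXCR4, had 10.6, 6.13 and 6.33 against 14.4 and 15.6 CPM (adjusted p = 0.206). Tgfb1, the main fibrogenic cytokine, had 16.1, 17.7 and 19.3 against 11 and 11.3 CPM without overlap (adjusted p = 0.203).

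**Figure D4:**
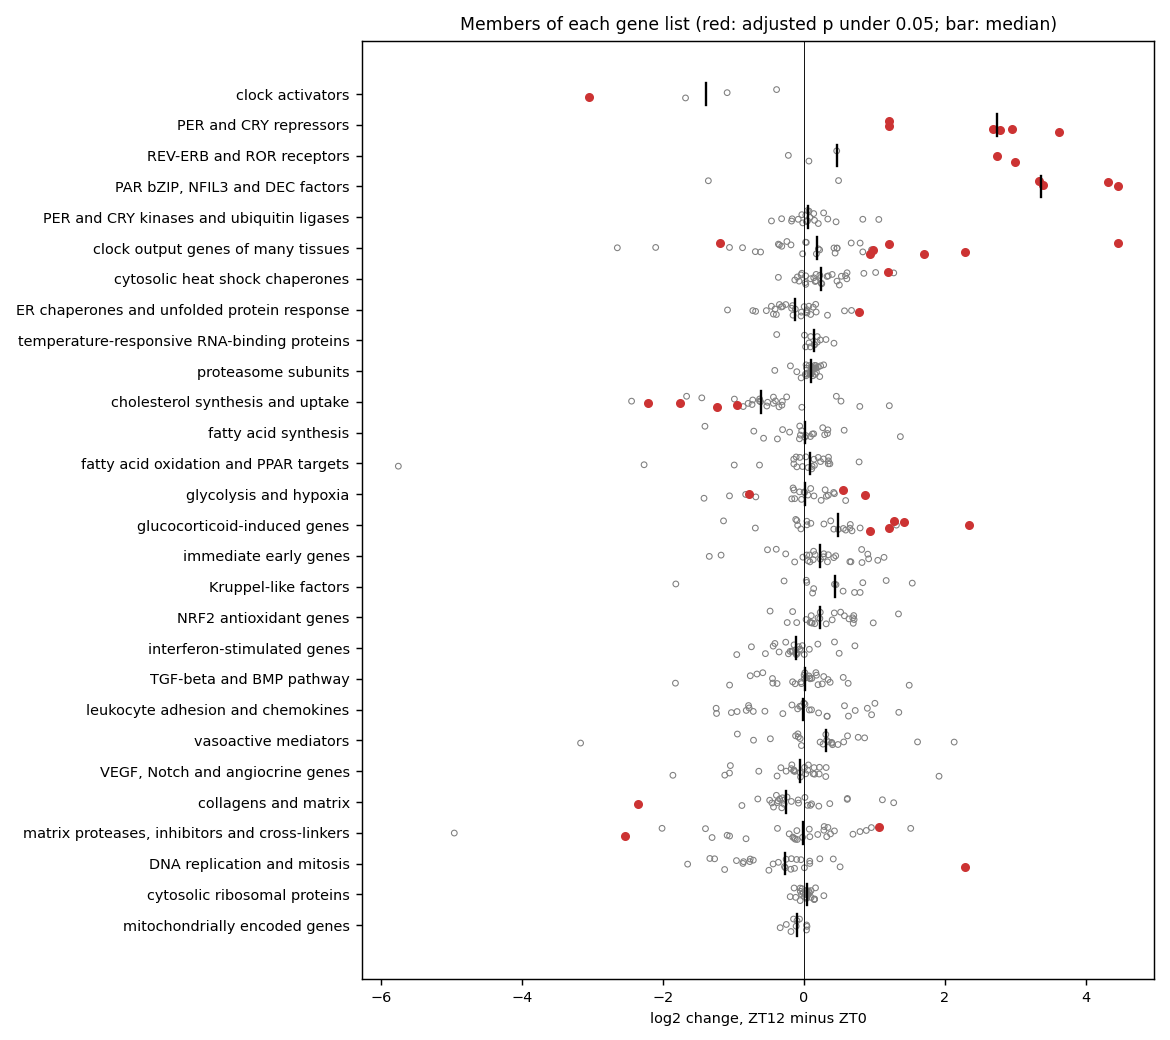
Log2 change, ZT12 minus ZT0, of every tested member of each gene list except the cell type marker lists, with called members in red and a bar at the list's median. By median, the Per and Cry group and the PAR bZIP group lie to the right of 0. The clock activators and cholesterol synthesis lie to the left, while most other lists centre near 0.

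Fewer genes were called between the same 2 times in the CDA-HFD libraries. At ZT12, 6 of 22409 genes (0.0268%) differed from ZT0 under that diet in the edgeR test, and 3 of them, Dbp, Timp3 and Tspan4, were called on chow too. These are 3.33% of the chow calls and 50% of the diet calls. Of the 90 genes called on chow, 54 had the same sign under diet, while over all tested genes 51.3% had the same sign. The median size of the log2 change of the 90 was 1.53 on chow and 0.23 under diet; the 90 were chosen by their chow change, so that contrast is a description. The difference between diets was called for 20 genes (0.0892%), 19 of them among the 90. It was called for 87 genes without replicate 2 of chow ZT0 and for 40 without replicate 1 of chow ZT12.

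Core clock genes make up much of that list of 20. Dbp had 5.31, 3.06 and 3.59 CPM at ZT0 and 14.1, 10.9 and 12 CPM at ZT12 under CDA-HFD, a log2 change of 1.62 ± 0.23, and the diets differed by -2.84 ± 0.33 (edgeR adjusted p = 0.000476). Nr1d1 had 27.7, 18.5 and 23.4 CPM and 41.5, 38.8 and 23.7 CPM under diet, so the groups overlapped there (difference -2.16 ± 0.32, adjusted p = 0.00957). Arntl had 27.5, 24.2 and 26.5 CPM at ZT0 and 11.6, 25.4 and 15.9 CPM at ZT12 under diet, again with overlap (difference 2.49 ± 0.41, adjusted p = 0.0127). Ciart, which rose on chow, had 14, 11.9 and 20.4 CPM and 9.35, 13.4 and 14 CPM (difference -3.02 ± 0.50, adjusted p = 0.0127). Srebf2 had 65.4, 64.3 and 65.7 CPM and 65.2, 71.9 and 55.2 CPM, with overlap (difference 1.21 ± 0.19, adjusted p = 0.0103). Of these 5 genes, the difference was no longer called for Arntl without chow replicate 1 of ZT12 (adjusted p = 0.0753) and for Srebf2 without chow replicate 1 of ZT12 (adjusted p = 0.057), and over the alternatives the adjusted p of the 5 ran from 1.96e-16 to 0.0753. With a replicate block the difference was also lost for Ciart (edgeR adjusted p = 0.0584) and for Arntl (0.0599). Per2 did not pass the test of the difference between diets, with 4.84, 1.38 and 5.45 CPM and 11.8, 7.17 and 6.06 CPM under diet (difference -2.53 ± 0.65, adjusted p = 0.182). Tspan4 and Timp3 rose in both diets at different levels: Tspan4 went from 24.3, 15.4 and 16.6 CPM to 62.3, 40.3 and 39.8 CPM and Timp3 from 48.7, 55.8 and 47.1 CPM to 117, 92.4 and 84 CPM under CDA-HFD, and their log2 changes, 1.33 ± 0.22 and 0.95 ± 0.15, did not differ from those on chow past the threshold (adjusted p = 0.801 and 0.94).

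The diets also differed in their cell type markers. Endothelial markers summed to 36720.4 to 65064 CPM in the 5 chow libraries and to 2309 to 3857 CPM in the 6 CDA-HFD libraries of these times. Markers of T, NK and B cells summed to 1261 to 3907 CPM and 6384 to 11796 CPM, and hepatocyte markers to 618 to 1066 CPM and 1579 to 2004 CPM. No endothelial, hepatocyte or lymphocyte marker was at 0 in all 5 chow libraries. The part of these cell types in the differences between diets was not tested.

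**Figure D5:**
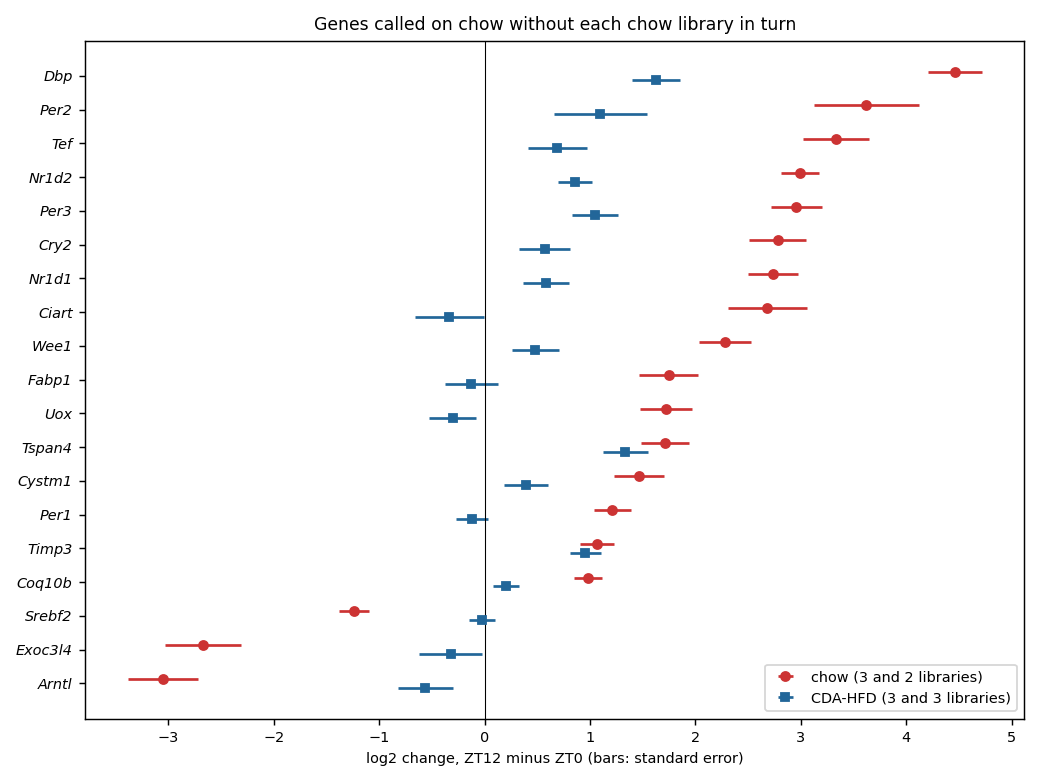
Log2 change, ZT12 minus ZT0, with its standard error, for 19 of the genes called with each chow library left out in turn, on chow (red circles, 3 and 2 libraries) and under CDA-HFD (blue squares, 3 and 3 libraries). The blue squares of Dbp, Tspan4, Per2, Per3 and Timp3 lie at about 1 or above. Those of Nr1d2 and Tef lie at 0.85 and 0.69, and the others lie nearer 0.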

How the data were processed

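RNA-seq was done on total RNA of 22 libraries of mouse liver cells, of which the 5 chow libraries of ZT0 and ZT12 were compared. The submitters' processing notes name STAR 2.7.9a, HTSeq and DESeq2 and the build GRCm38 (mm10). The deposited table gives whole-number read counts per gene, not normalised by the authors. The authors' normalised table was not used here. Sequencing was on an Illumina HiSeq instrument after extraction with a Promega kit, per the labels' protocols. The sources used here do not give the annotation, the strand setting, the isolation of the cells or any batch. Reads from a gene and its antisense or overlapping partner therefore cannot be told apart.

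Counts were tested in R 4.3.3 with edgeR 4.0.16 (limma 3.58.1). Genes were filtered by filterByExpr over the 8 groups, scaled by TMM and fitted with glmQLFit with 1 mean per group over all 22 libraries, so that groups share 1 estimate of the spread. The contrasts chow ZT12 minus ZT0, CDA-HFD ZT12 minus ZT0 and their difference were tested with glmQLFTest, and p-values were adjusted over all 22409 genes by Benjamini-Hochberg. Log2 CPM used a prior count of 2. CPM per kilobase used the union of exons in GENCODE M21, which held 21935 of the tested symbols and gave the coordinates (GRCm38). Promoters came from RefSeq (GRCm38.p6).

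Named genes were, each way, the 12 with the largest change among called genes with a mean log2 CPM of at least 2, no overlap between groups and no placeholder symbol, all tested members of the 4 clock lists, and up to 4 called members of each other list, or the 2 with the smallest p where none was called. Some genes named by the rule are not reported here. Genes named outside this rule were chosen after their values were seen: Uox, Adh1, Eomes, Napsa, Bach2, Wdfy4, Csf2rb, H2-DMb1, Tlr1, Ccr9, Cystm1, Mcoln1, Cln3, Sqstm1, Me2, Papss2, Xdh, the genes whose change differed between diets, the defining markers and the uncalled members of lists given by value. The comparison, the 38 lists and the tests were chosen with earlier results of these data known.

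In data simulated from these libraries (21090 genes, changed genes with a mean over 4 CPM), the chow contrast recovered 48% of 100 2-fold and 84% of 100 4-fold changes. Of 136 calls there, 2.94% were false. The simulated counts followed the fitted model, with genes drawn independently and no outlying library or shift in cell types. The share of false calls in the real data was therefore not tested. Replicates of a group differed far beyond sampling noise, so none was counted as a repeat. Alternatives were RLE scaling, library size alone, no filter, a replicate block, DESeq2 1.42.0, a minimum mean CPM of 5, the 10 chow or the 5 compared libraries alone, and each of the 5 libraries left out.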

Additional observations from a re-analysis of the deposited data

Results flagged for a closer look

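The change from ZT0 to ZT12 differed between CDA-HFD and chow, by edgeR's test of that difference, for 20 genes (adjusted p under 0.05 over all tested genes). Differences below are log2, the CDA-HFD change minus the chow change. No cause was tested, and the marker sums given above differ between the diets.

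Clock genes that rose on chow had negative differences. The difference was -3.02 for Ciart, -2.84 for Dbp, -2.65 for Tef, -2.21 for Cry2, -2.16 for Nr1d1, -2.14 for Nr1d2, -1.91 for Per3, -1.80 for Wee1 and -1.33 for Per1. Arntl, which fell on chow, differed by 2.49. Srebf2, also lower at ZT12 on chow, differed by 1.21. With a replicate block, Ciart (edgeR adjusted p = 0.0584), Cry2 (0.0536), Per3 (0.056), Per1 (0.0543) and Arntl (0.0599) were among those no longer called. With each chow library left out in turn, Ciart, Dbp, Tef, Cry2, Nr1d1 and Nr1d2 stayed called. The difference was no longer called for Per3 without chow replicate 1 of ZT12 (adjusted p = 0.057), for Per1 without chow replicate 2 of ZT12 (adjusted p = 0.148), and for Wee1 without chow replicate 1 of ZT0 (adjusted p = 0.0601), replicate 3 of ZT0 (0.0567) and replicate 1 of ZT12 (0.118).

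Other genes were less tied to 1 process. Uox differed by -2.03, Papss2 by -1.52 and Sqstm1 by -0.76, and under CDA-HFD the estimate of each was below 0 (-0.30 ± 0.22, -0.30 ± 0.18 and -0.28 ± 0.09). Mpzl1, a membrane glycoprotein that signals through SHP2, differed by 2.48: it had 93.8, 76.6 and 73.9 CPM at ZT0 and 34.2 and 28.6 CPM at ZT12 on chow, and 8.19, 6.86 and 8.61 CPM and 22.2, 15 and 13.6 CPM under CDA-HFD. Pafah1b3, a catalytic subunit of platelet-activating factor acetylhydrolase, differed by 1.57. Efnb1, the ephrin B1 ligand, differed by 1.40 and was the 1 gene of the 20 not called on chow alone (adjusted p = 0.0668). Of these, Mpzl1 stayed called with each chow library left out, while Uox was lost without chow replicate 2 of ZT12 (adjusted p = 0.0681), Papss2 without chow replicate 1 of ZT12 (adjusted p = 0.084), Sqstm1 without chow replicate 1 of ZT12 (adjusted p = 0.127) and replicate 2 of ZT12 (0.0904), Pafah1b3 without chow replicate 3 of ZT0 (adjusted p = 0.0623) and replicate 2 of ZT12 (0.26) and Efnb1 without chow replicate 2 of ZT12 (adjusted p = 0.157). Cyp11a1 differed by -7.52, a value that rests on replicate 2 of chow ZT12, as described above, and was lost without chow replicate 1 of ZT0 (adjusted p = 0.112), replicate 3 of ZT0 (0.0623) and replicate 2 of ZT12 (0.769). With a replicate block, Papss2 (edgeR adjusted p = 0.0765), Pafah1b3 (0.0765) and Cyp11a1 (0.0584) were among those no longer called. Lce6a had 1.38, 1.63 and 1.21 CPM at chow ZT0 and 0 in both chow ZT12 libraries, so no fold is given for it.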

How the results depend on the processing

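All 90 genes called on chow kept their sign in each of the 13 alternatives that tested them, and 14 were called in every alternative. The number called moved: 85 with RLE scaling, 93 with library size alone and 118 with a mean CPM of at least 5, but 738 without a filter (255 higher, 483 lower), 461 with DESeq2 (172 higher, 289 lower; 3487 genes without an adjusted p), 36 on the 10 chow libraries alone (28 higher, 8 lower; 19324 genes tested) and 18 on the 5 compared libraries alone (14 higher, 4 lower; 17345 genes tested). The cause was not tested. With each library left out in turn 35 to 176 genes were called, 19 to 120 higher and 16 to 85 lower. Of the 90 calls, 63 held without replicate 1 of ZT0, 75 without replicate 2, 66 without replicate 3, 48 without replicate 1 of ZT12 and 23 without replicate 2. Without 1 of the 2 ZT12 libraries the other is assumed to vary like the rest. Whether the label numbers pair the libraries was not settled. Of 13 same-numbered chow pairs, 2 correlated over 0.1 in their deviations from the group means, with a range from -0.04 to 0.14. In a group of 2 libraries these deviations mirror each other, so this check cannot exclude pairing. With a replicate block 61 genes were called on chow (26 higher, 35 lower), 3 under CDA-HFD and 12 in the difference between diets. Of the 90 chow calls, 48 held with that block. Under CDA-HFD the 6 calls became 45 with library size alone, 491 without a filter, 10 with a mean CPM of at least 5 and 136 with DESeq2, and 5 to 34 with each chow library left out. The 20 genes that differed between diets became 31, 586, 46 and 210 in the same 4 alternatives, and 17 to 87 with each chow library left out; no CDA-HFD library was left out. At 20775403 to 41665623 reads and 2 libraries at ZT12, a 2-fold change of a gene over 4 CPM was recovered in under 50% of simulated cases, so uncalled genes are not shown to be level.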
